A study of Homo sapiens with 14 samples.

Results

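Common qPCR reference genes were followed through a series of cell mixtures. They were 9 genes, ACTB, ACTG1, GAPDH, PPIA, HPRT1, TBP, TFRC, GUSB and YWHAZ, taken by their symbol in GENCODE release 44 from the 58440 genes counted in each library, and all 9 were found and passed the filter on low counts in every comparison. The study prepared suspensions of HEK-293T, an attached human embryonic kidney line carrying the SV40 large T antigen, and of Jurkat, a line from a human T cell leukemia whose cells float in the medium, and mixed them so that 100%, 80%, 60%, 50%, 40%, 20% or 0% of the cells were HEK. Each of these 7 conditions has 2 libraries, 14 in all, which the labels call technical replicates, so every spread and p-value here describes technical repeats of 1 preparation of cells. Neither line was treated, and both were harvested at the same time after passage. Oligo-dT beads captured the mRNA, a fixed amount of ERCC spike-ins (synthetic RNAs) was added to it, and the barcoded cDNAs were pooled according to a qPCR of Actb.

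Reference genes are transcripts of basic cell functions that a qPCR experiment uses as its yardstick, on the assumption that they take the same share of the RNA, or the same amount per cell, in every sample. The 9 genes belong to different machinery. ACTB and ACTG1 encode the cytoplasmic beta and gamma actins, GAPDH a glycolytic enzyme, PPIA the cyclophilin that binds cyclosporin, and YWHAZ a 14-3-3 adaptor protein. HPRT1 recycles purine bases, GUSB is a lysosomal enzyme that trims glucuronic acid, TBP places the transcription machinery at promoters, and TFRC is the transferrin receptor that brings iron into dividing cells. Here each gene was read on 2 scales: its share of mRNA, as CPM (counts on the gene for every 1000000 counts on genes), and its count for every 1000 ERCC counts, which follows the amount of mRNA obtained from a sample.

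The libraries held between 4468822 and 28303668 counts on genes. Between 0.674% and 7.65% of a library's counts were on spike-ins. Pure HEK libraries gave 122 ± 35.4 gene counts per ERCC count (SD, n = 2) and pure Jurkat libraries 12.2 ± 0.174 (SD, n = 2), a ratio of 10.0. The paper, also by spike-ins, puts the mRNA of HEK cells at about 6 times that of Jurkat cells. Why the 2 values differ was not tested. The identity of the lines was checked with markers: 5 of 5 HEK markers were higher in pure HEK and 6 of 6 T cell markers were higher in pure Jurkat. The names of the deposited files divide the libraries into groups of 6 and 8, and both pure HEK libraries are in the first and both pure Jurkat libraries in the second, so line and file group cannot be told apart between the pure libraries.

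The beta and gamma actin genes are the only members of 1 family among the 9, and their ratio is followed through the mixtures, so the start of their coding sequences is shown, with the bases that differ in capitals. The 2 coding sequences are 1125 bases each and are identical at 1027 of them (91.3%). The stretches are the first 90 coding bases in GRCh38, at chr7:5529568-5529657 on the minus strand for ACTB and at chr17:81512265-81512354 on the minus strand for ACTG1, both in the first coding exon of the canonical transcript.
ACTB: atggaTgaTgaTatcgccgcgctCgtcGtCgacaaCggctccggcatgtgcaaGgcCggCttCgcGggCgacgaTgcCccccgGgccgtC
ACTG1: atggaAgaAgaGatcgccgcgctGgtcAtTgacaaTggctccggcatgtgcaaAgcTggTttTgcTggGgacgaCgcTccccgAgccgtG
They differ at 17 of the 90 positions, of which the first capitals fall in codons for acidic residues that differ between the proteins. The reads were 40 bases long, and of the 1773 words of 40 bases in the canonical ACTB transcript 17.8% were also found in transcripts of other genes. For ACTG1 this was 8.62% of 1880 words.

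ACTB took a larger share of mRNA in Jurkat than in HEK. ACTB (chromosome 7, 5526409 to 5563902, minus strand) was at 633 and 608 CPM in pure HEK and at 1294 and 1391 CPM in pure Jurkat. The groups did not overlap, and the share in Jurkat was 2.16 ± 0.126 times that in HEK (SD, n = 2 per line). On the log2 scale the change from Jurkat to HEK was -1.11 ± 0.19 (SE, adjusted p = 0.00870, quasi-likelihood test of edgeR, Benjamini-Hochberg over all genes tested). With either pure HEK library left out ACTB kept log2 changes of -1.14 and -1.08 but did not pass (adjusted p = 0.0583 and 0.0660, edgeR).

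ACTG1 did not pass the test. ACTG1 (chromosome 17, 81509413 to 81523847, minus strand) was at 1187 and 1192 CPM in pure HEK and at 1044 and 691 CPM in pure Jurkat. The HEK libraries were the higher pair, but the Jurkat libraries lay far apart, and the log2 change of 0.46 ± 0.26 (SE) had an adjusted p of 0.210 (edgeR's quasi-likelihood test). Without the first Jurkat library the log2 change was 0.78 and passed (adjusted p = 0.0497, edgeR), and without the second it was 0.19 (adjusted p = 0.478, edgeR).

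The ratio of the 2 actins within a library does not depend on how libraries are scaled. ACTG1 counts were 1.87 and 1.96 times ACTB counts in pure HEK. At 80% HEK the ratio was 1.69 and 1.73, and at 60% HEK it was 1.74 and 1.56. Both libraries with 50% HEK had 1.53. The ratio then fell to 1.17 and 1.49 (40% HEK), 0.869 and 0.911 (20% HEK) and finally 0.807 and 0.497 (pure Jurkat). The mean ratio thus fell at every step towards Jurkat, and ACTB became the more counted actin at 20% HEK. The libraries at 50% HEK shared their ratio although ACTB was at 601 CPM in the first and 1145 CPM in the second. All 4 mixed libraries with 80% or 60% HEK were above all 4 with 40% or 20%, a log2 difference in ACTB over ACTG1 of -0.63 (two-sided exact permutation p = 0.0286, the smallest that 4 against 4 libraries can give). Over the 36 pairs of members tested this way, the adjusted p was 0.0857 for this and 11 other pairs, and no pair passed the threshold. This split of the mixtures was chosen after their values were seen.

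**Figure D1:**
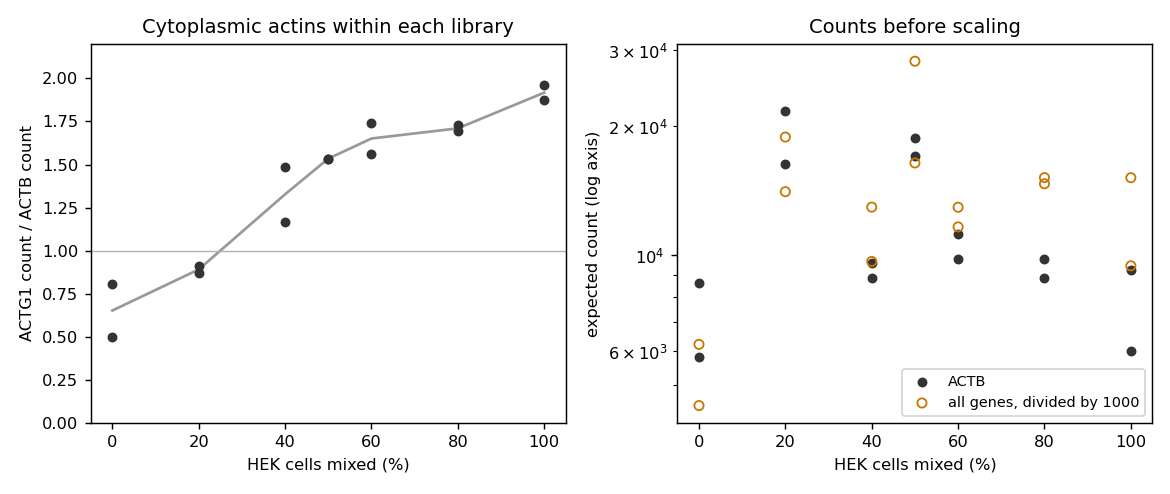
Left, the ratio of ACTG1 to ACTB counts in each of the 14 libraries (points) against the percentage of HEK cells, with a line through the means of 2 libraries. It falls from 1.96 in pure HEK to 0.497 in pure Jurkat. Right, the expected count of ACTB (filled) and of all genes divided by 1000 (open) on a log axis. ACTB counts of the pure lines overlap (5782 to 9223), while both pure HEK totals are above both pure Jurkat totals.

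TFRC, the other member that was higher in Jurkat, differed less. TFRC (chromosome 3, 196012511 to 196082153, minus strand) was at 47.5 and 48.8 CPM in pure HEK and at 80.1 and 75.3 CPM in pure Jurkat, without overlap, a ratio of 1.61 ± 0.0771 (SD, n = 2 per line). The log2 change was -0.69 ± 0.19 (SE, adjusted p = 0.0371, edgeR's quasi-likelihood test). The call was the least firm of the 4, since it was lost when any of the 4 pure libraries was left out, with all 14 libraries in 1 fit (adjusted p = 0.0609) and without the filter on low counts (adjusted p = 0.0696, both edgeR).

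HPRT1 and GUSB took a larger share of mRNA in HEK. HPRT1 (chromosome X, 134460165 to 134520513, plus strand) was at 96.7 and 83.7 CPM in pure HEK and at 32.0 and 32.7 CPM in pure Jurkat. GUSB (chromosome 7, 65960684 to 65982215, minus strand) was at 31.1 and 38.2 CPM in HEK and at 12.1 and 12.4 CPM in Jurkat. Neither gene's groups overlapped. The share of HPRT1 in HEK was 2.79 ± 0.288 times that in Jurkat (SD, n = 2 per line) and that of GUSB 2.83 ± 0.413 times (SD, n = 2 per line). The log2 changes were 1.48 ± 0.21 for HPRT1 (SE, adjusted p = 0.00480) and 1.50 ± 0.23 for GUSB (SE, adjusted p = 0.00618, edgeR's quasi-likelihood test for both), and both calls were kept under all 10 alternatives.

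Both genes were higher in pure HEK, and the mean of their ratio hardly changed between the lines. HPRT1 was at 2.61 times GUSB in pure HEK and 2.64 times in pure Jurkat (geometric means of 2 libraries). The 2 pure HEK libraries did not share this ratio. The first was higher in HPRT1 (96.7 beside 83.7 CPM) and the second in GUSB (38.2 beside 31.1 CPM). In the mixtures their ratio spread by 0.138 on the log2 scale (SD, 10 libraries), a spread smaller than that of either against ACTB, 0.467 for HPRT1 and 0.369 for GUSB. Between the mixtures with 80% or 60% HEK and those with 40% or 20%, the log2 ratio of HPRT1 to GUSB differed by 0.24 (two-sided exact permutation p = 0.0286, adjusted p = 0.0857 over the 36 pairs). Between the pure lines the difference was -0.016, of the other sign. The split of the mixtures was chosen after the values were seen, so these p-values are too favorable.

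GAPDH and YWHAZ were the members whose shares overlapped between the lines. GAPDH (chromosome 12, 6534512 to 6538374, plus strand) was at 1034 and 935 CPM in HEK and at 1144 and 918 CPM in Jurkat, a log2 change of -0.07 ± 0.22 (SE). YWHAZ (chromosome 8, 100916523 to 100953388, minus strand) was at 181 and 193 CPM in HEK and at 216 and 181 CPM in Jurkat, a log2 change of -0.09 ± 0.21 (SE). Neither passed edgeR's test (adjusted p = 0.823 for GAPDH and 0.756 for YWHAZ). The sign of these changes turned when the first pure Jurkat library was left out, so no direction is given for either gene.

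PPIA and TBP stood in between. PPIA (chromosome 7, 44796680 to 44824564, plus strand) was at 813 and 832 CPM in HEK and at 591 and 643 CPM in Jurkat. TBP (chromosome 6, 170554302 to 170572870, plus strand) was at 14.5 and 16.8 CPM in HEK and at 11.5 and 9.75 CPM in Jurkat. In both genes the HEK libraries were above the Jurkat libraries, but the log2 changes of 0.41 ± 0.19 and 0.56 ± 0.23 (SE) did not pass edgeR's test (adjusted p = 0.135 and 0.105).

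In all, 4 of the 9 reference genes passed the test on the share of mRNA, 2 in each direction. Of all 15794 genes tested, 44.6% passed, 29.5% higher in HEK and 15.1% lower. The members were therefore called about as often as genes in general. Their median log2 change was 0.41, beside 0.29 over all genes. With TMM scaling the median over all genes was 0.12 and that of the members 0.24, and the same 4 members were called. DESeq2 divided all its calls more evenly, 3181 higher and 2940 lower in HEK, where edgeR had 4665 and 2387.

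Other genes proposed as references were also called in part, more of them higher than lower in HEK. Of 32 further classical qPCR references, 12 were higher in HEK, 4 were lower and 16 did not pass edgeR's test, while DESeq2 called 8 higher and 5 lower. CDKN1A, a cell cycle inhibitor, was at 16.3 and 15.4 CPM in HEK and held 1 and 2 counts in the Jurkat libraries. B2M, the light chain of MHC class I, was at 86.1 and 79.6 CPM in HEK and at 397 and 343 CPM in Jurkat, a log2 change of -2.16 ± 0.21 (SE, adjusted p = 0.00175, edgeR). Of 11 genes proposed as references from RNA-seq data, 6 were higher in HEK and none was lower by edgeR, nor at an unadjusted p under 0.05, while DESeq2 called 2 higher and none lower. Their median log2 change was 0.92, and they included REEP5, a shaper of the endoplasmic reticulum, with 1.93 ± 0.27 (SE, adjusted p = 0.00452, edgeR).

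The families and pathways around the members are given as counts, to be read beside the 29.5% of all genes that were higher in HEK and the 15.1% that were lower, and no difference between lists was tested. Among 14 lysosomal glycosidases other than GUSB, 10 were higher in HEK by edgeR and 8 by DESeq2, and none was lower by either tool or at an unadjusted p under 0.05. Their median log2 change was 1.37. GLA, the lysosomal alpha-galactosidase, was at 54.6 and 56.5 CPM in HEK and 4.25 and 5.32 CPM in Jurkat. Of 7 genes of purine salvage beside HPRT1, 3 were higher in HEK and 3 lower by edgeR, and 2 and 3 by DESeq2. APRT, the adenine counterpart of HPRT1, was at 138 and 129 CPM in HEK and 60.6 and 56.1 CPM in Jurkat, while ADA, adenosine deaminase, was at 10.5 and 11.1 CPM in HEK and 371 and 340 CPM in Jurkat.

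Of the 5 other 14-3-3 genes tested beside YWHAZ, none passed edgeR's test in either direction, 1 was lower in HEK at an unadjusted p under 0.05, and DESeq2 called 1 lower. The list had a median absolute log2 change of 0.28 against 0.90 over all genes. Among 15 other cyclophilins, 6 were higher in HEK and 4 lower by edgeR, and 2 and 4 by DESeq2. A list of 16 genes held TAF genes, which encode the partners of TBP in TFIID, and TBPL1, a relative of TBP. Of these genes, 3 were higher and 1 lower by edgeR, and 12 did not pass. DESeq2 called 2 higher and 1 lower. Of 11 genes of iron handling beside TFRC, 2 were higher by edgeR and 1 by DESeq2, and each tool called 1 lower. The 2 by edgeR were STEAP3, with 16.2 and 17.7 CPM in HEK and 0.895 and 0.484 CPM in Jurkat, and FTL. The ferritin light chain FTL had 180 and 167 CPM in HEK and 112 and 106 CPM in Jurkat (adjusted p = 0.0413, edgeR). The iron exporter SLC40A1 was the 1 lower gene by edgeR, with 1.69 and 1.19 CPM in HEK and 23.0 and 6.12 CPM in Jurkat. ACTA2, smooth muscle actin, was the only one of 5 other actins with enough counts to be tested, and it was higher in HEK by edgeR but not by DESeq2, at 7.41 and 6.03 CPM beside 2.69 and 1.37 CPM.

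On the spike-in scale, all 9 reference genes were higher in HEK. For every 1000 ERCC counts, ACTB had 93.4 and 59.2 counts in pure HEK and 15.6 and 17.1 in pure Jurkat. GAPDH had 153 and 91.0 in HEK and 13.8 and 11.3 in Jurkat. HPRT1 had 14.3 and 8.14 in HEK and 0.386 and 0.403 in Jurkat. The order of the members was that on the share scale, with HPRT1 and GUSB exchanged.

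The fold per ERCC count ran from 4.66 ± 1.51 for ACTB and 6.20 ± 1.70 for TFRC (SD, n = 2 per line) over 9.39 for YWHAZ, 9.69 for GAPDH, 13.3 for PPIA, 13.8 for ACTG1 and 14.6 for TBP to 27.8 for GUSB and 28.4 ± 11.0 for HPRT1. All genes together were 10.0 times higher. The adjusted p of the members ran from 2.36e-15 for HPRT1 to 1.73e-05 for ACTB (edgeR's quasi-likelihood test, library size set to the ERCC total). Since 92.5% of all genes tested were higher in HEK on this scale, 9 of 9 is close to the background. The error of a spike-in total is common to all genes of a library, so these p-values are too small, and an exact permutation test of 2 against 2 libraries cannot go below 0.333. More mRNA per cell and a better recovery of mRNA from HEK samples cannot be told apart here.

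**Figure D2:**
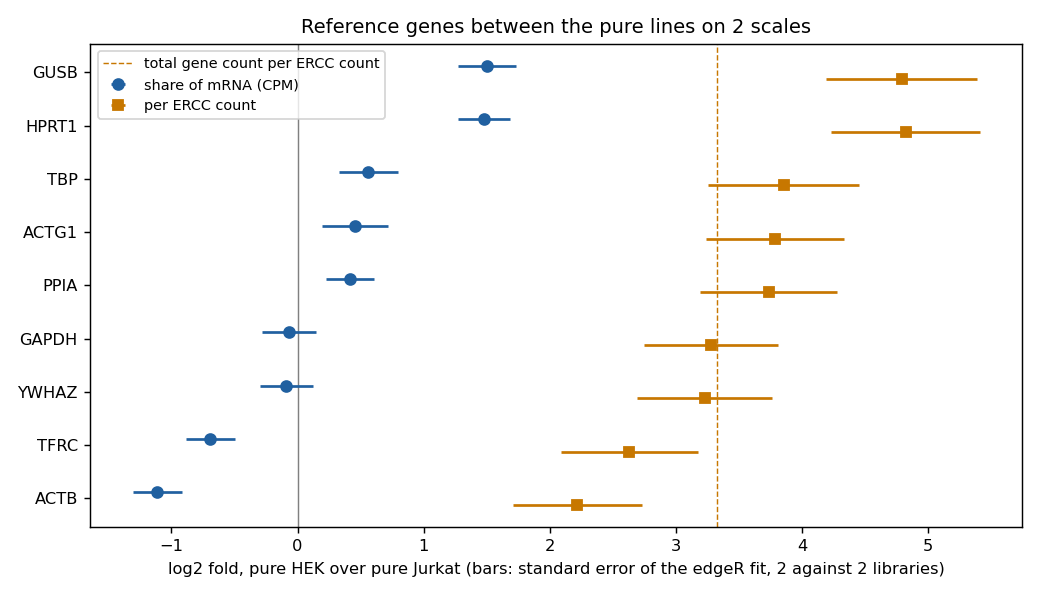
log2 fold of pure HEK over pure Jurkat for each reference gene as a share of mRNA (circles) and per ERCC count (squares), with standard errors of the edgeR fits of 2 against 2 libraries. The dashed line is the fold of all genes together per ERCC count, a ratio of 10.0. The circles run from -1.11 for ACTB to 1.50 for GUSB, and all squares lie above 0.

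The choice of yardstick set the answer to how much mRNA a HEK sample yields relative to a Jurkat sample. When each gene in turn was held equal between the pure lines, the total of all genes was 2.16 ± 0.126 times larger in HEK by ACTB and 1.61 ± 0.0770 times by TFRC (SD, n = 2 per line). It was 1.06 times by YWHAZ and 1.04 times by GAPDH. By PPIA it was 0.749 times, by ACTG1 0.699, by TBP 0.679, by HPRT1 0.361 ± 0.0373 and by GUSB 0.358 ± 0.0523. The ratio was thus above 1 by 4 members and below 1 by 5, with YWHAZ (SD 0.141) and GAPDH (SD 0.177) within their spread of equality. These ratios restate the shares given above, inverted, and are no further test. That all 9 were below the 10.0 given by the spike-ins follows from each gene being higher in HEK per ERCC count.

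Counts of ACTB before any scaling were examined because the cDNAs were pooled by a qPCR of this gene. ACTB had 5986 and 9223 counts in pure HEK and 5782 and 8630 in pure Jurkat, a ratio of 1.06 ± 0.433 (SD, n = 2 per line), while the total on genes was 2.31 ± 0.923 times higher in HEK. Over all 14 libraries ACTB counts ran from 5782 to 21692. Their SD on the log2 scale was 0.579, below the 0.660 of the total count. Of the 3430 genes with a mean of at least 50 CPM, 12.8% had a smaller SD of raw counts than ACTB, and the median gene had 0.815. TFRC had nearly the same SD of raw counts as ACTB, 0.584. In the other members it ran from 0.655 for YWHAZ to 1.09 for HPRT1.

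As a share of mRNA, YWHAZ varied least of the members. Its CPM ran from 176 to 257 over 14 libraries, an SD of 0.154 on the log2(CPM + 1) scale, which ranked 17 of 3430 genes with at least 50 CPM. TBP followed with 0.253, PPIA with 0.275 and TFRC with 0.338. ACTG1 had 0.361 and GAPDH 0.414. ACTB with 0.453, GUSB with 0.486 and HPRT1 with 0.581 were above the median gene, which had 0.432. TBP and GUSB had means of 14.6 and 25.9 CPM and so lie below the level of the ranked genes. The 3 genes with the smallest SD among the 1777 with at least 100 CPM were the RNA-binding protein genes HNRNPUL1 with 0.114 and HNRNPA3 with 0.119, and TPT1, the gene of translationally controlled tumor protein, with 0.142.

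**Figure D3:**
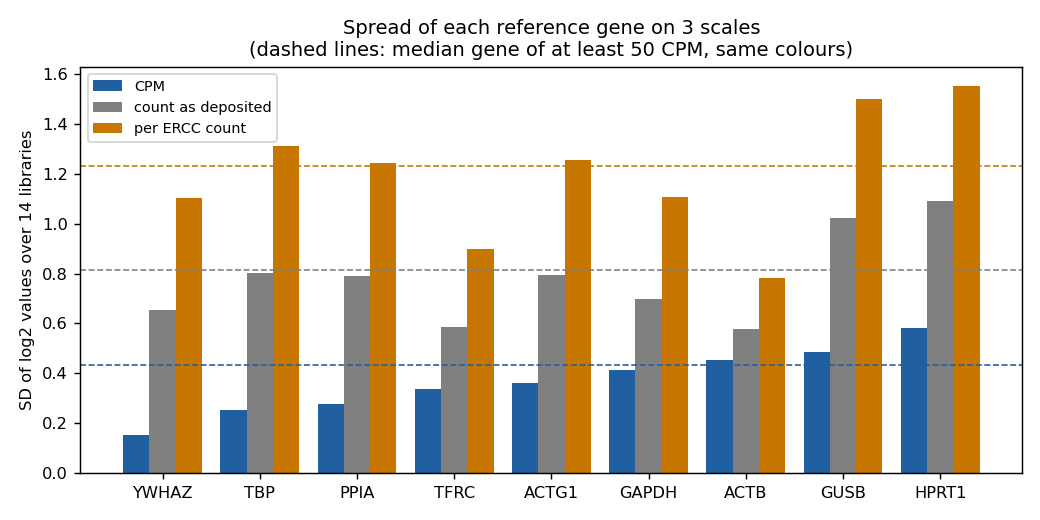
SD of log2 values over 14 libraries for each reference gene as CPM, as deposited counts and per ERCC count, ordered by the first. Dashed lines give the median of 3430 genes on the same scales. YWHAZ has the lowest bar as CPM (0.154) and HPRT1 the highest (0.581), while ACTB has the lowest bar as counts (0.579) and per ERCC count (0.782).

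Pairs of members showed which of them kept step. The log2 ratio of PPIA to TBP had an SD of 0.170 over the 14 libraries, that of ACTG1 to PPIA 0.179 and that of HPRT1 to GUSB 0.186. At the other end ACTB to HPRT1 had 0.882, since ACTB was at 6.90 times HPRT1 in pure HEK and at 41.5 times in pure Jurkat. Averaged over its 8 partners, the SD was lowest for PPIA with 0.318 and highest for ACTB with 0.573. By this measure YWHAZ, with 0.370, came after PPIA, ACTG1 and TBP.

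Scaling by length gave other values for YWHAZ. RSEM's TPM divide a gene's count by an effective length that it estimates for each library from the isoforms it assigns reads to. For YWHAZ this length was 3000 and 2955 bases in pure HEK and 1577 and 1902 bases in pure Jurkat. Its TPM, rescaled to genes without spike-ins, were 59.3 and 64.9 in HEK and 147 and 99.3 in Jurkat, without overlap and 1.98 ± 0.554 times higher in Jurkat (SD, n = 2 per line), where CPM gave 1.06 ± 0.142. This difference did not pass limma's test on log2(TPM + 1), with a log2 change of -0.95 ± 0.26 (SE, adjusted p = 0.0523). The TPM of YWHAZ also differed within a condition, at 140 and 64.7 in the libraries with 80% HEK, where CPM were 216 and 191. TFRC was moved in the same way. Its effective length was 3640 and 3902 bases in HEK and 2263 and 2523 bases in Jurkat, and its TPM were 2.73 times higher in Jurkat against 1.61 times by CPM. At 40% HEK its TPM were 53.5 and 31.2 where CPM were 78.9 and 80.5. The effective lengths of ACTG1, GAPDH and HPRT1 differed by at most 1.05 times over all libraries.

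By TPM, which divides counts by effective length, ACTB was the most abundant member in pure Jurkat, at 1948 and 2040. GAPDH followed at 1169 and 917, PPIA at 697 and 759 and ACTG1 at 679 and 439. In pure HEK, GAPDH at 971 and 888 and PPIA at 902 and 988 overlapped at the top, above ACTB at 848 and 821 and ACTG1 at 711 and 722. YWHAZ, HPRT1, GUSB, TFRC and TBP lay below these 4 in both lines. TBP was lowest, at 8.60 and 11.1 in HEK and 7.57 and 6.58 in Jurkat. cDNA was primed at the poly(A) tail, and how this weights short and long transcripts was not tested. The order of the actins in pure HEK changed with the scale. By CPM, ACTG1 at 1187 and 1192 was above ACTB at 633 and 608, so the order by TPM holds for that scale only.

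The mixtures gave a separate view of the same genes, since the pure libraries do not enter. With the share of mRNA fitted against the percentage of HEK cells over the 10 mixed libraries, 0 of 9 members passed edgeR's quasi-likelihood test after Benjamini-Hochberg adjustment, where 5.18% of 17242 genes did. If HEK cells are weighted by the ratio of 10.0, the HEK part of the RNA would run from 71.5% at 20% HEK to 97.6% at 80%. The mixtures thus cover a small part of the range between the lines, and 0 of 9 does not show constant shares. The changes of ACTB and TFRC had an unadjusted p under 0.05, with -0.13 ± 0.048 (unadjusted p = 0.0163, adjusted p = 0.159) and -0.11 ± 0.047 (unadjusted p = 0.0389, adjusted p = 0.253) on the log2 scale per 10 percentage points of HEK (SE, edgeR over all genes). DESeq2 called both, lower with more HEK (adjusted p = 0.00303 for ACTB and 0.0369 for TFRC). ACTB was at 584 and 667 CPM at 80% HEK and at 1151 and 1159 CPM at 20%. TFRC was at 46.4 and 51.1 CPM at 80% and at 79.2 and 68.7 CPM at 20%, and for both genes these 2 conditions did not overlap.

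**Figure D4:**
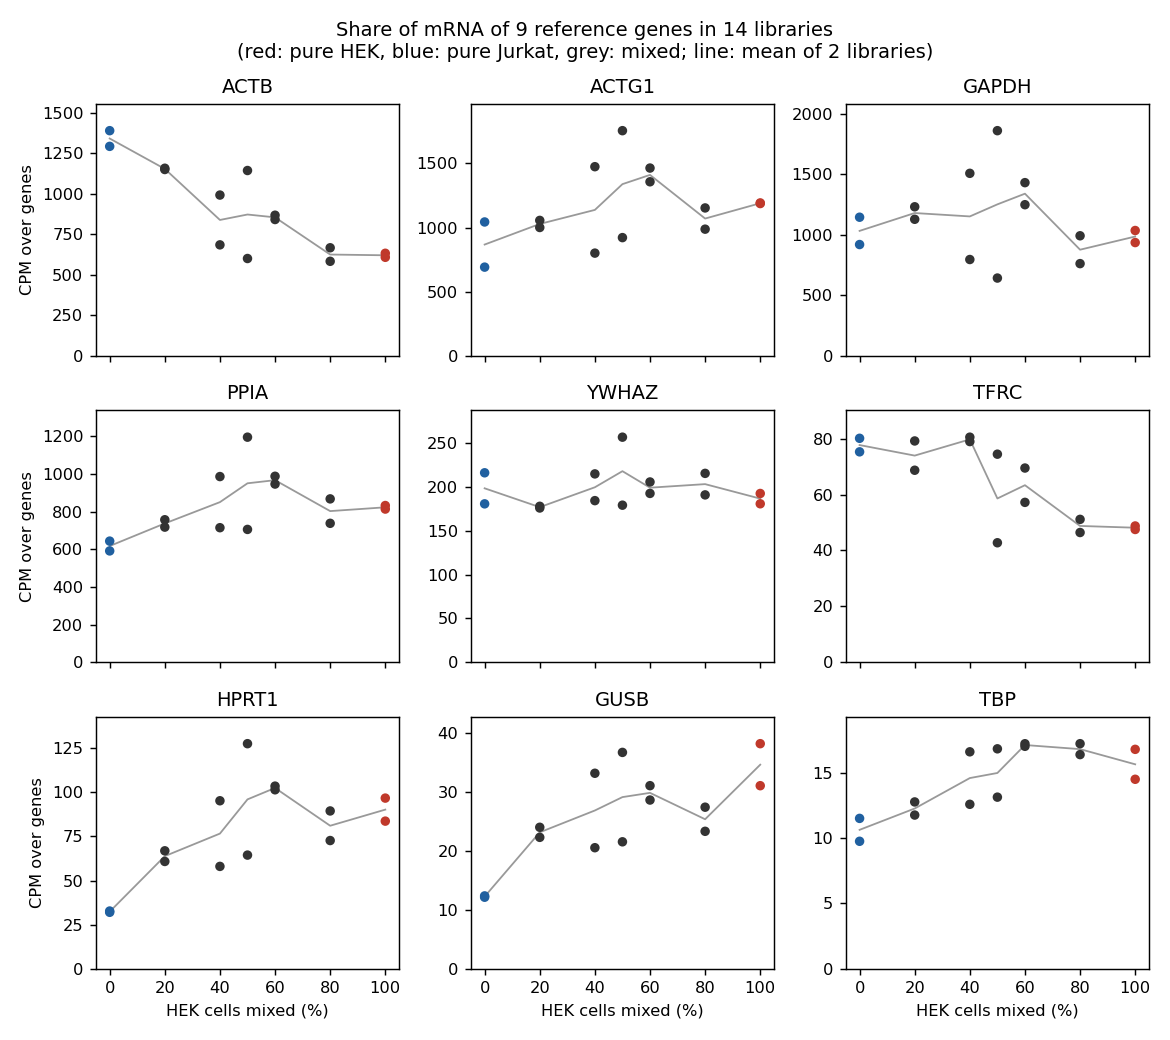
CPM of each reference gene in every library (points) against the percentage of HEK cells, with lines through the means of 2 libraries. ACTB falls from 1391 CPM in pure Jurkat to 608 CPM in pure HEK, HPRT1 and GUSB are lowest in pure Jurkat, and the libraries at 50% and 40% HEK lie far apart in most panels.

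Libraries of a condition stood apart in the middle of the series. At 50% HEK, all 9 members were higher in the second library than in the first, by a median of 1.74 times and by up to 2.90 times for GAPDH. The median ratio over genes with a mean of at least 50 CPM was 0.961 times, where rises and falls cancel. Taken without direction, the median of these genes differed by 1.46 times. At 40% HEK all 9 members were again higher in the second library, by a median of 1.45 times. The same genes had a median ratio of 1.05 times, and 1.36 times without direction. In the other conditions the median member differed by 0.940 to 1.17 times. GAPDH in the second 50% library, at 1859 CPM, was above every pure library, which reached at most 1144 CPM, and it was at 642 CPM in the first, below every pure library. For GAPDH, 5 of 10 mixed libraries lay above and 3 below the range of the pure libraries. For PPIA, 5 lay above and none below.

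The share of counts on ribosomal protein genes went with these libraries. It was 11.1% and 15.8% in the first and second libraries at 50% HEK and 10.8% and 13.4% at 40%. In the other libraries it lay between 11.4% and 14.0%, except in pure Jurkat with 7.35% and 8.55%. The 2 libraries at 50% also differ in file group and those at 40% do not. The part of either in the values of the reference genes was not tested.

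Per ERCC count, 7 of 9 members rose with the percentage of HEK cells over the mixtures, where 78.2% of all genes did. The rises ran from 0.25 ± 0.11 for GAPDH to 0.37 ± 0.11 for HPRT1 on the log2 scale per 10 percentage points (SE, adjusted p = 0.0270 and 0.00380, edgeR's quasi-likelihood test). ACTB with 0.17 ± 0.10 (adjusted p = 0.111) and TFRC with 0.19 ± 0.10 (adjusted p = 0.0848, both edgeR) did not pass. This count rested on 1 library. The second library at 80% HEK had 123 gene counts per ERCC count beside 46.6 in the first, and without it 0 of 9 members passed edgeR's test, with 4 at an unadjusted p under 0.05, and 11 of the 17582 genes tested passed. Without the first library at 20% HEK, 3 members passed.

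Additive mixing was the last comparison. A mixture's share of each gene was predicted from the pure libraries and the part of its RNA that comes from HEK, with HEK cells weighted by the ratio of 10.0. At 50% HEK cells, 90.9% of the RNA would then be from HEK. TFRC was above this prediction, by 0.32 ± 0.095 on the log2 scale over the 10 mixed libraries (SE, adjusted p = 0.0290, edgeR's quasi-likelihood fit), in 8 of 10 libraries. No other member passed, so 1 of 9 was called, where 16.3% of all genes were. ACTB, at 0.29 ± 0.097 above in 7 of 10 libraries (adjusted p = 0.0535), and GUSB, at -0.25 ± 0.096 with 8 of 10 libraries below (adjusted p = 0.0862, both edgeR), were nearest to the threshold. The call of TFRC was lost with a weight of 6, the paper's approximate value, in place of 10.0 (adjusted p = 0.0569, edgeR). It was also lost without any of 5 mixed libraries: the first at 60% HEK (adjusted p = 0.0634), the second at 50% (0.0603), the first and second at 40% (0.0568 and 0.0738) and the first at 20% (0.0612, all edgeR).

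For GUSB, more reads were assigned to its pseudogenes than to the gene itself. GENCODE lists 19 GUSB pseudogenes, 11 of which held counts. In pure HEK they held 523 and 1096 counts beside 294 and 579 for GUSB, or 1.78 and 1.89 times as many. In pure Jurkat they held 481 and 552 counts beside 54.3 and 76.7 for GUSB, or 8.86 and 7.19 times as many. As a share of mRNA the pseudogenes were at 63.8 ± 12.0 CPM in HEK and 98.3 ± 13.2 CPM in Jurkat (SD, n = 2 per line), higher in Jurkat where GUSB was lower. Only 3.29% of the 2160 words of 40 bases in the canonical GUSB transcript were also found in its pseudogenes. How RSEM divided reads that fit both, and how far this moved the values of GUSB, was not tested.

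**Figure D5:**
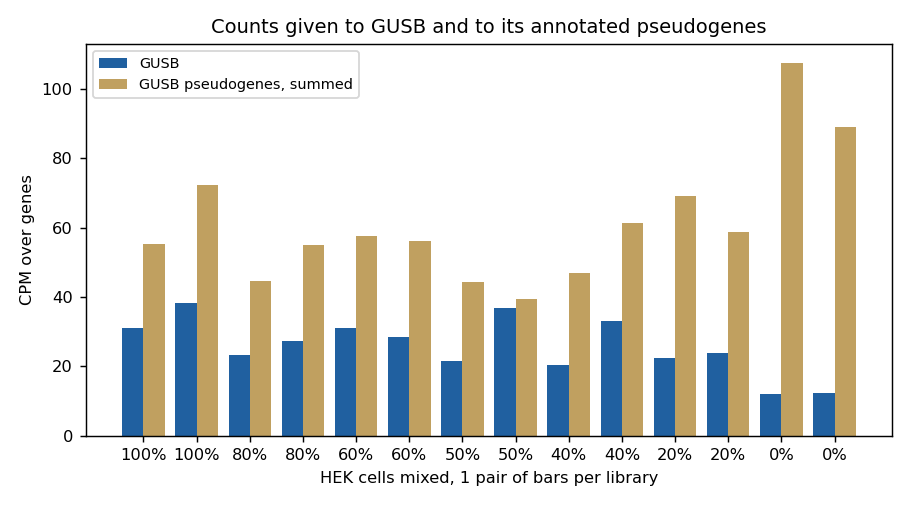
CPM of GUSB and of its annotated pseudogenes, summed, in each of the 14 libraries, ordered from pure HEK to pure Jurkat. The pseudogene bar is the taller in all 14 libraries and is 7.19 to 8.86 times the GUSB bar in pure Jurkat.

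In the other members the pseudogenes held fewer counts than the gene, and where their reads came from was not tested. They held from 4.99% to 12.9% of the count of PPIA, over 89 annotated pseudogenes, and from 3.17% to 6.08% of that of GAPDH, over 65. For ACTG1 it was at most 0.939%, for YWHAZ 0.536% and for ACTB 0.0218%. The transcripts of GAPDH and PPIA shared 33.8% and 20.1% of their words of 40 bases with their pseudogenes, so their counts rest in part on how shared reads were divided. HPRT1 and TFRC shared no such word with any other gene in this annotation.

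Over the means of the 7 conditions, the genes most like each member on the log2(CPM + 1) scale were sought among those with at least 50 CPM. For ACTB these were LEF1 and TMSB10, with r of 0.995 and 0.993. For HPRT1 they were XBP1 and TRIM28, both at 0.999, and for GUSB they were CDK4 and ACAT1, at 0.994 and 0.988. ACTG1 was most like MTCH2 and CHCHD2 (0.995 and 0.992), PPIA like IMP3 and DYNLL1 (0.996 and 0.990), GAPDH like ACTR1A and SIVA1 (0.981 and 0.979) and TBP like GAS5 and JPX (0.979 and 0.978). TFRC was most like WIPF2 and HLA-E (0.953 and 0.947). YWHAZ had no close match, with 0.877 for DALRD3 and 0.835 for SLC20A1. These are descriptions over 7 points that share the same series of percentages and the same libraries.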

How the data were processed

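Values came from 14 RNA-seq libraries of HEK and Jurkat cells, 2 technical replicates for each of 7 percentages of HEK cells. Per the paper's methods and the submitters' processing notes, reads were aligned with STAR 2.6.1b to GRCh38 with the ERCC sequences and counted with RSEM 1.3.1. The gene annotation is not given in the sources used here. The deposited expected counts are estimated counts per gene, not normalized. The deposited TPM were scaled by RSEM over genes and spike-ins together and were rescaled here to genes only, and RSEM's effective lengths were read beside them. A table of the whole series with the same expected counts was set aside. Symbols and positions came from GENCODE release 44, which matched 57799 of 58440 identifiers.

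The members and gene lists were chosen with earlier results of these data known. Genes named beside the 9 members were at most 2 per direction and list with the largest change among those past the threshold, the 3 genes of at least 100 CPM with the smallest spread, and the 2 genes most like each member over the condition means. Pseudogenes were those named by a member's symbol followed by P and a number, given as sums. Differences were tested with edgeR 4.0.16 (glmQLFit, glmQLFTest, filterByExpr) on rounded expected counts, with the total on genes or on spike-ins as library size and Benjamini-Hochberg adjustment at 0.05. Standard errors were the log2 change divided by the square root of F. The test of additive mixing was computed from deviances with and without an intercept, with the expected share (at least 0.2 CPM) as offset and the error of the pure libraries left out. DESeq2 1.42.0 and limma 3.58.1 on log2(TPM + 1) were alternatives. Spread was the SD of log2(CPM + 1) over libraries. R 4.3.3 and Python 3.11.15 were used. Steps were tested on simulated data. Depth ran from 4468822 to 28303668 counts. No library was left out of the main results.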

Additional observations from a re-analysis of the deposited data

How the results depend on the processing

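Libraries named here are counted in the order of their records within a condition. Of 380 alternatives followed for single members, 336 kept their direction and their side of the threshold. Another 28 lost a call, 13 gained a call and 3 turned in sign. These took all 9 members between the pure lines and in the trend per ERCC count, but only ACTB, TFRC and GUSB in additive mixing. In the trend of share they took only ACTB and TFRC. Outside the 380, HPRT1 and TBP also turned in sign in additive mixing. Without the second library at 40% HEK their log2 changes of 0.0051 and 0.0058 became -0.019 and -0.011. The 3 that turned among the 380 were GAPDH and YWHAZ in share of mRNA, which were not called. Over the fits without a pure library, GAPDH ran from -0.22 to 0.10 and YWHAZ from -0.21 to 0.047 on the log2 scale. In the share of mRNA between pure lines, 4 members were called, and from 2 to 4 with a pure library left out. Without either pure HEK library only HPRT1 and GUSB passed. ACTB then had a log2 change of -1.14 or -1.08 with an adjusted p of 0.0583 or 0.0660 (edgeR), and fits that leave 1 sample in a line assume that it varies like the other line. In the trend of share over the mixtures, 0 members were called, also without each mixed library in turn, and DESeq2 called 2. Per ERCC count the 7 members called became 0 to 9 when a mixed library was left out. For additive mixing the 1 member called became 0 to 2 without a mixed library, 0 with a coefficient of 6, 2 with the coefficient from the first pure HEK library alone, 2 with TMM scaling and 3 without the filter on low counts. The median member's SD of log2(CPM + 1) was 0.361 over the libraries, 0.343 to 0.375 with each left out, and 0.237 over the 7 condition means. The 9 members were called per ERCC count between the pure lines under all 8 alternatives. ACTB's raw count SD stayed between 0.519 and 0.602 with each library left out. No paired analysis was possible because the labels give the libraries no replicate numbers. The shallow counts of TBP and GUSB in pure Jurkat (51.4 to 76.7) limit the precision of both.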

Other observations

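Counts on mitochondrial genes were from 4.14% to 8.20% of all gene counts, lowest in the pure Jurkat libraries, at 4.14% and 5.41%, and highest in the first library at 40% HEK. The raw counts of TFRC overlapped between the pure lines as those of ACTB did, with 449 and 739 in HEK and 358 and 467 in Jurkat. In the second library at 50% HEK the members ran from 1.11 times the additive prediction for TBP to 1.88 times for GAPDH. In the first library at 50% they ran from 0.649 times for GAPDH to 0.954 times for YWHAZ. How all genes lay around the prediction in these libraries was not counted.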
